A study of Homo sapiens with 18 samples.

Results

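The 10 genes described here have been reported as direct targets of EWSR1::FLI1 through GGAA sites, namely NR0B1, NKX2-2, CAV1, FCGRT, GSTM4, STEAP1, VRK1, PRKCB, LIPI and JAK1. They were taken by symbol from 3 tables of 58381 gene rows each, all 10 were found, and all 10 passed the low-count filter in every line. The tables hold RNA sequencing counts of TC-32, TC-71 and A673. All are established Ewing sarcoma lines, and this tumour of bone and soft tissue is most often driven by a fusion of EWSR1 to the ETS family gene FLI1. In each line, 3 libraries came from cells transfected with a small interfering RNA against FLI1 (siFLI1) and 3 from cells given a negative control (siNeg), both at 20 nM. TC-32 and TC-71 were grown in RPMI medium and A673 in DMEM. The column names of TC-32 and TC-71 carry 48 h, and those of A673 carry no time. The labels name 1 siRNA against FLI1, and the FLI1 counts do not separate the fusion from unfused FLI1. The series also names ES-5838 cells and siERG, which are not analysed here.

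EWSR1::FLI1 joins the activation domain of EWSR1 to the DNA-binding domain of FLI1, which recognises the bases GGAA. Ordinary ETS factors act at single GGAA sites in promoters, whereas the fusion also binds long tandem runs of GGAA, called GGAA microsatellites, and can turn such a run into an enhancer of genes nearby or at a distance. Genes raised in this way include transcription factors, membrane proteins, kinases and metabolic enzymes that mark Ewing sarcoma cells.

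The reference genome was searched for tandem GGAA, read on either strand, around the annotated start of each gene. The search describes the hg38 reference only: these runs vary in length between people, and their length in TC-32, TC-71 and A673 was not measured. A run of at least 4 consecutive copies lay within 100 kb of the start of 9 of the 10 genes, and of 54.2% of the 12350 protein-coding genes tested in all 3 lines. With at least 6 copies it was again 9, against 29.7% of all genes. With at least 3 copies, or within 500 kb, all 10 had a run, as did 76.7% and 97.5% of all genes. At 4 copies and 100 kb, the exception was JAK1, whose nearest run, of 11 copies, lay 154.07 kb downstream of its start in its own intron. Within 10 kb, a run was found for 5 of the 10 genes and for 6.67% of all genes. A stricter description, chosen after the runs were seen, was a run of at least 8 copies within 5 kb: the same 5 genes and 1.05% of all genes held one. By their GENCODE starts, these are NR0B1, CAV1, GSTM4, LIPI and FCGRT.

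The stretches at those 5 genes are shown because they lie closest to a start, and that of NKX2-2 because its 20 copies made the longest single run within 100 kb of any of the 10. None overlaps an annotated exon. Each is written 5′ to 3′ on the strand that reads GGAA, with every GGAA copy in capitals and 15 bases on either side of the outermost runs of at least 4 copies. The NR0B1 stretch is chrX:30310743-30310874 (minus strand), the CAV1 stretch chr7:116523052-116523251 (plus), the GSTM4 stretch chr1:109654221-109654323 (plus), the LIPI stretch chr21:14213277-14213350 (minus), the FCGRT stretch chr19:49511492-49511633 (plus) and the NKX2-2 stretch chr20:21576269-21576378 (minus).
NR0B1: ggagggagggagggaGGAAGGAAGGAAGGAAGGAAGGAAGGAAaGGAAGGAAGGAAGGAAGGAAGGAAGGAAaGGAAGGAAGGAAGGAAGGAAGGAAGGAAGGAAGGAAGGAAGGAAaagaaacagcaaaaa
CAV1: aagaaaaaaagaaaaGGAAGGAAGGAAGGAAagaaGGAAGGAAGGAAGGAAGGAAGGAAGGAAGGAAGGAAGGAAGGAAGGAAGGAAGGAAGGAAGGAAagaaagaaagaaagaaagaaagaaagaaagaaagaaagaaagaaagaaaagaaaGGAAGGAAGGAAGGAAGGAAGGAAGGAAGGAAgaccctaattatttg
GSTM4: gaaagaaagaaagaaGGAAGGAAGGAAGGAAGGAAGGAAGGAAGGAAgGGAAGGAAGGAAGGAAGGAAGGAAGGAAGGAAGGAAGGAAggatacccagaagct
LIPI: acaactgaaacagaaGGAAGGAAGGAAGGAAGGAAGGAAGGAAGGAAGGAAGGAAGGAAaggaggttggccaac
FCGRT: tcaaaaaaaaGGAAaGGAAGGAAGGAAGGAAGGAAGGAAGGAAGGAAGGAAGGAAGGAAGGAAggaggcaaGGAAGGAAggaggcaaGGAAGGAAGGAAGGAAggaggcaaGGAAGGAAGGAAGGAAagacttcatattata
NKX2-2: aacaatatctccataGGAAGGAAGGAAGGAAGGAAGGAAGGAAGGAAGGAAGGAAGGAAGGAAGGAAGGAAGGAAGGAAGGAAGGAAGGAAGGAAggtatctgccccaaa

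The stretches differ in how they are broken up. That of NR0B1 held 25 copies in 132 bases, in runs of 7, 7 and 11 separated by single bases, and its centre lay 1.42 kb upstream of the gene. That of CAV1 held 28 copies, with an uninterrupted run of 16, and lay 1.84 kb upstream. GSTM4 had 18 copies in runs of 8 and 10, 1.83 kb upstream. LIPI had 1 pure run of 11 copies, 2.36 kb upstream of its GENCODE start but 6364 bases upstream of its RefSeq start, beyond 5 kb. The same run lay 2.82 kb upstream of RBM11, which is transcribed away from LIPI on the other side. In FCGRT, the 23 copies lay 4.75 kb downstream of the GENCODE start, in an intron, but the nearest run, of 12 copies, lay 1131 bases upstream of the RefSeq start. The remaining genes had runs farther away. The nearest run of VRK1 had 11 copies and lay 28.1 kb upstream, that of PRKCB had 13 copies and lay 31.0 kb downstream within the gene, and that of NKX2-2 had 9 copies and lay 41.8 kb upstream. The nearest to STEAP1 lay 53.9 kb downstream in an intron of STEAP2 and had 6 copies, next to a run of 17.

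**Figure D1:**
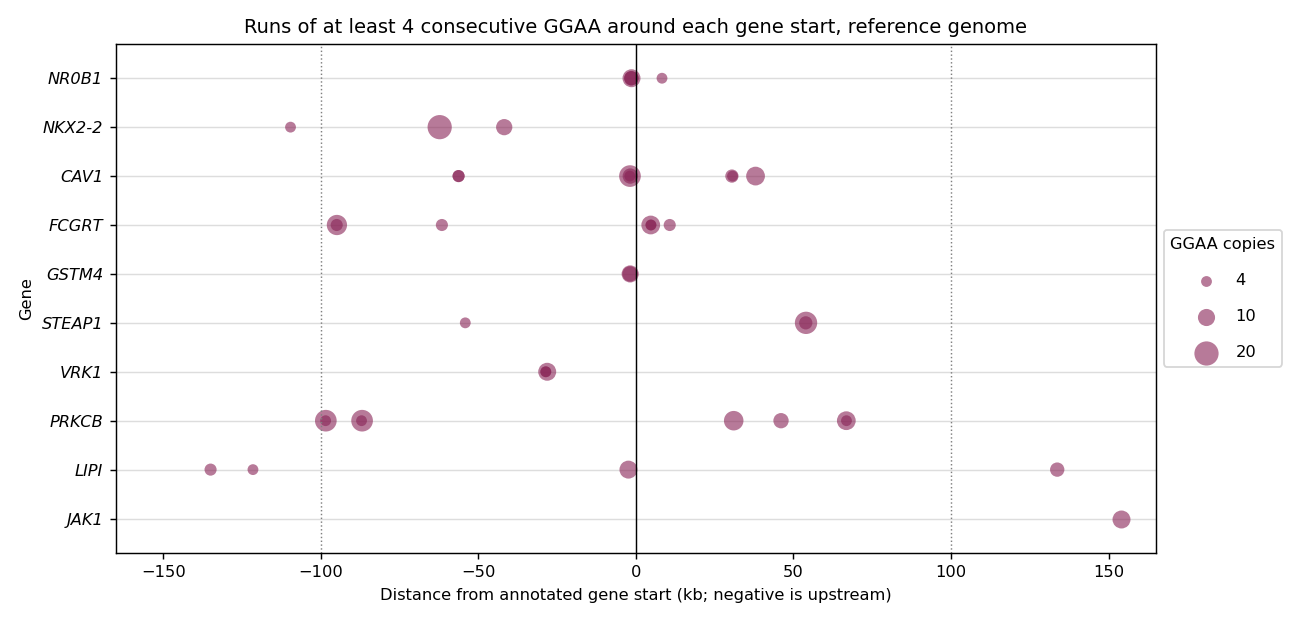
Runs of at least 4 consecutive GGAA in the reference genome around the annotated start of each of the 10 genes. The horizontal axis is the distance from the start in kb, negative upstream, dotted lines mark 100 kb, and the area of a circle gives the copies in a run; NR0B1, CAV1, GSTM4, LIPI and FCGRT have a run within 5 kb, and JAK1 has none within 100 kb.

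TC-32 libraries held 24102487 to 33669271 counts, TC-71 libraries 19685354 to 37234528, and A673 libraries, the deepest, 114564479 to 120993595. Of 6 markers of Ewing sarcoma, CD99, FLI1, NKX2-2, PRKCB, BCL11B and NR0B1, all reached 1 CPM (counts scaled to the library total, corrected by the TMM method) in TC-32 and A673. In TC-71, 5 reached it, and CD99 was listed at 0 in every library, in both its main row and its pseudoautosomal Y copy. In TC-32 and A673, these CD99 rows held equal counts in each library, and the table of TC-71 names a different counting program. The reason for the 0 was not tested, so it is not read as absence of CD99 from TC-71. NKX2-2, PRKCB and NR0B1 are among the 10 genes described, FLI1 is the siRNA target and BCL11B is another reported fusion target. The markers other than CD99 are thus no separate check of the lines. Of 11 markers of leukocytes, endothelium, epithelium and skeletal muscle, at most 3 reached 1 CPM in any group. In TC-32, their summed level was 2.68 to 3.47 CPM with siNeg and 11.7 to 13.6 CPM with siFLI1, of which DES held 5.31 to 6.86 CPM and CDH1 3.76 to 5.14 CPM. In A673, the sum was 0.820 to 1.299 CPM with siNeg and 2.35 to 2.83 CPM with siFLI1, without overlap, and CDH5 held 0.287 to 0.439 CPM with siNeg and 1.43 to 1.73 CPM with siFLI1. In TC-71, it was 0.659 to 1.45 CPM and 1.27 to 1.99 CPM, with overlap. PECAM1, also endothelial, went down in TC-32, from 1.81 to 2.43 CPM with siNeg to 0.20 to 0.65 CPM with siFLI1. In A673 it held 0.418 to 0.557 CPM with siNeg and 0.157 to 0.301 CPM with siFLI1. In TC-71 it held 0 CPM with siNeg and 0.123 to 0.574 CPM with siFLI1. PTPRC and CD3E did not reach 1 CPM in any group, and the part of the other markers in the results was not tested. In these bulk libraries, fewer cells that express a gene and less RNA per cell cannot be told apart.

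The siRNA target was read first. FLI1 stood at 45.3, 47.7 and 42.8 CPM in TC-32 siNeg and at 21.7, 22.01 and 22.6 CPM in siFLI1. TC-71 held 52.0, 52.8 and 47.95 CPM against 17.2, 17.7 and 19.9 CPM, and A673 held 76.5, 76.8 and 75.4 CPM against 18.3, 17.9 and 17.6 CPM. The siFLI1 libraries lay below every siNeg library, and the log2 fold changes were -1.03 for TC-32, -1.47 for TC-71 and -2.09 for A673 (edgeR, highest adjusted p = 1.85e-13). EWSR1, the fusion partner, changed by -0.39, -0.16 and -0.37 in the same order of lines.

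The first question was how far each target fell when FLI1 was lowered. With siFLI1, TC-32 had 9 of the 10 genes lower and 1 higher, TC-71 likewise 9 lower and 1 higher, and A673 all 10 lower (edgeR, adjusted p under 0.05). Over all genes tested, 40.1% were called lower for TC-32, 35% for TC-71 and 35.4% for A673, and 41.3%, 36.8% and 35.6% were called higher. Calls in either direction covered 81.4%, 71.9% and 71% of genes. The 10 were picked as known targets with earlier results of these data in view, so their shared direction is no independent evidence. In A673, library size alone as the scaling turned the split of all calls from 6531 lower and 6565 higher to 7929 lower and 5488 higher, and the 10 genes stayed lower. Called falls of at least 2-fold numbered 8 for TC-32 (15.6% of all genes), 6 for TC-71 (9.38%) and 8 for A673 (9.87%). The median log2 fold change of the 10 genes was -1.95 for TC-32, -1.21 for TC-71 and -1.50 for A673, beside medians over all genes of 0.022, 0.018 and -0.0066. No overlap between the libraries of the siRNAs was seen for any of the 10 genes, nor for 82.6% of all genes in TC-32, 73.8% of those of TC-71 and 73.6% of those of A673. The 8 genes lower in each line were NR0B1, NKX2-2, GSTM4, STEAP1, VRK1, PRKCB, LIPI and JAK1, where 19% of all genes tested in all 3 were lower in each. CAV1 was higher in TC-71 and FCGRT was higher in TC-32. The labels do not say whether the 3 libraries of a group came from separate cultures, so the p-values measure the spread between these libraries.

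**Figure D2:**
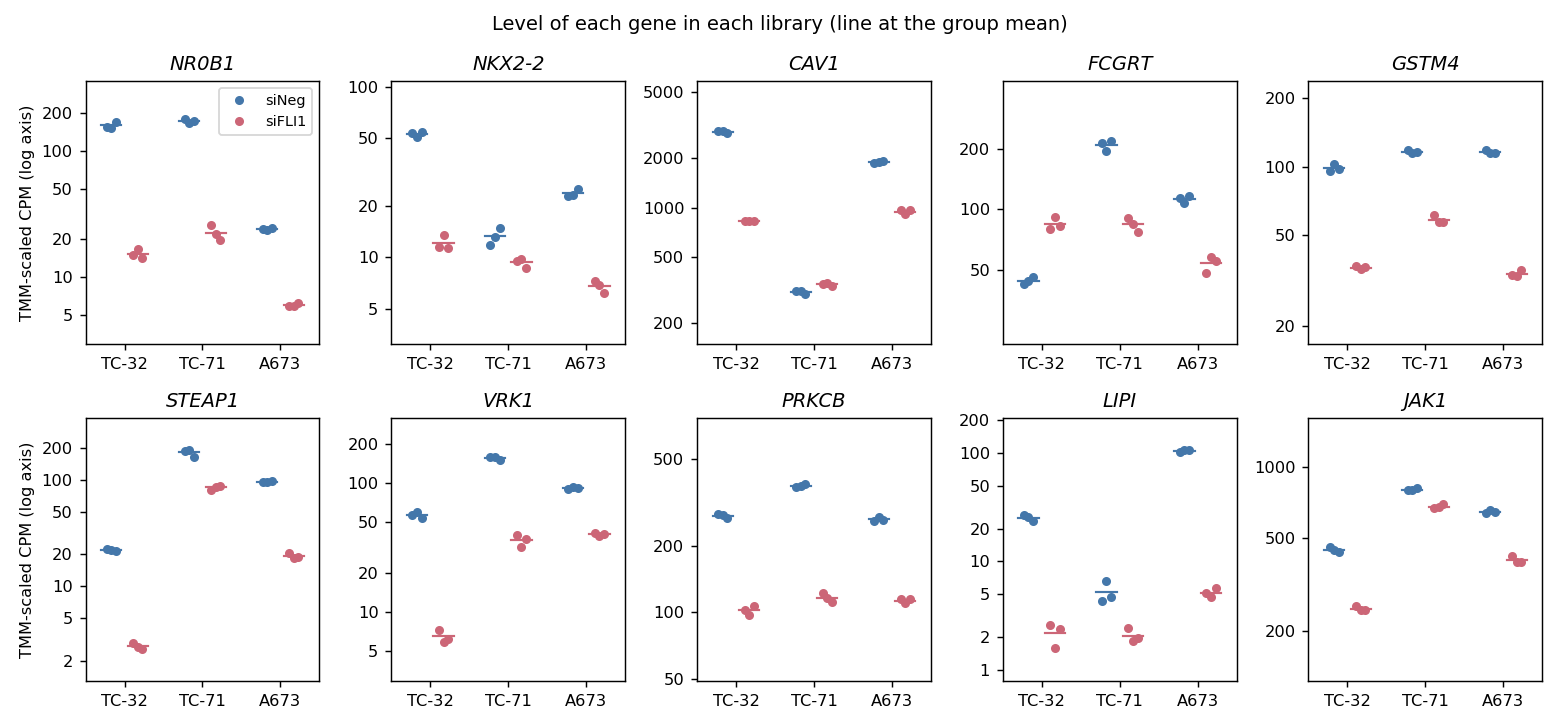
TMM-scaled CPM of the 10 genes in each of the 18 libraries, on log axes that differ between panels. Points are libraries, horizontal bars are means of 3, and colour gives the siRNA; siFLI1 lies below siNeg everywhere except for FCGRT in TC-32 and CAV1 in TC-71.

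Among the transcription regulators, NR0B1 encodes DAX1, an orphan nuclear receptor that acts as a corepressor and is scarcely present in most adult tissues outside the endocrine axis. In TC-32, NR0B1 stood at 154.5, 153 and 169.5 CPM in siNeg and at 14.9, 16.6 and 14.1 CPM in siFLI1. All siFLI1 libraries were far below all siNeg libraries. The log2 fold change was -3.38 (edgeR, SE 0.0642, adjusted p = 1.21e-23), and 9.60% of the control level was left. In TC-71, the siNeg libraries held 179, 166 and 171 CPM and the siFLI1 libraries 25.6, 21.99 and 19.7 CPM, or a log2 change of -2.95 (edgeR, SE 0.0666, adjusted p = 1.72e-22). A673 differed in its starting level, with 23.9, 23.6 and 24.25 CPM in siNeg, and it fell to 5.83, 5.82 and 6.13 CPM. That is a log2 change of -2.01 (edgeR, SE 0.0530, adjusted p = 6.24e-15). Thus A673 with siNeg was close to the level that TC-71 kept after siFLI1, but the tables were scaled separately and that of TC-71 names a different counting program. The line with the most FLI1 left had the lowest share of NR0B1 left.

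NKX2-2 encodes a homeobox repressor that is used in pathology to recognise Ewing sarcoma. In TC-32, it stood at 53.3, 50.3 and 53.8 CPM in siNeg and at 11.5, 13.6 and 11.3 CPM in siFLI1, or a log2 change of -2.11 (edgeR, SE 0.0733, adjusted p = 1.71e-18). In A673, it went from 22.9, 23.2 and 25.0 CPM to 7.30, 6.92 and 6.20 CPM, or a log2 change of -1.80 (edgeR, SE 0.0643, adjusted p = 3.25e-13). The fall was shallow in TC-71, from 11.8, 13.2 and 14.9 CPM to 9.53, 9.75 and 8.70 CPM, and the groups came within a few CPM of each other without overlapping. There the log2 fold change was -0.52 (edgeR, SE 0.0984, adjusted p = 2.74e-05). Opposite-strand genes, among them NKX2-2-AS1, cover 43.95% of its exons, and with the strand setting of the counting not given in the sources used here, the NKX2-2 counts are uncertain.

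Of the membrane proteins, CAV1 is the coat protein of caveolae, and it was the most abundant of the 10 genes per exon length in TC-32 and A673. In TC-32, CAV1 stood at 2912, 2915 and 2822 CPM in siNeg and at 826, 833 and 835 CPM in siFLI1, or a log2 change of -1.79 (edgeR, SE 0.0357, adjusted p = 2.50e-23). In A673, it went from 1851, 1898 and 1906 CPM to 967, 912 and 965 CPM, or a log2 change of -0.99 (edgeR, SE 0.0345, adjusted p = 2.25e-13). TC-71 had a low starting level of 313, 315 and 299 CPM, and its siFLI1 libraries, at 344, 353 and 336 CPM, all lay slightly above it. The log2 fold change there was 0.16 (edgeR, SE 0.0411, adjusted p = 0.00135), a small rise that ranged from 0.12 to 0.18 over the alternative settings. After siFLI1, TC-71 thus still held less CAV1 than TC-32 or A673, although CAV1 had fallen in both of those.

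STEAP1 is a metalloreductase of the plasma membrane and an antigen under study as a therapeutic target. In TC-32, it went from 22.65, 22.2 and 21.4 CPM in siNeg to 2.91, 2.703 and 2.57 CPM in siFLI1, or a log2 change of -3.02 (edgeR, SE 0.0997, adjusted p = 5.81e-19). In A673, the values were 96.0, 95.6 and 98.7 CPM against 20.4, 18.5 and 18.8 CPM, or a log2 change of -2.33 (edgeR, SE 0.0466, adjusted p = 1.91e-16). TC-71 began highest, at 190, 193.5 and 163.5 CPM, and kept 80.9, 86.5 and 88.4 CPM, or a log2 change of -1.09 (edgeR, SE 0.0558, adjusted p = 1.72e-15). STEAP1 in TC-71 after siFLI1 therefore stayed far above its control level in TC-32. FCGRT, the heavy chain of the neonatal Fc receptor, which protects antibodies and albumin from degradation, went in opposite directions. In TC-32, its siNeg libraries held 42.5, 43.8 and 45.75 CPM and its siFLI1 libraries 79.4, 91.5 and 82.1 CPM, or a log2 change of 0.94 (edgeR, SE 0.0592, adjusted p = 2.75e-13). TC-71 went down from 214.5, 195 and 218 CPM to 90.2, 84.6 and 77.2 CPM, or a log2 change of -1.32 (edgeR, SE 0.0541, adjusted p = 6.11e-18). In A673, it fell from 113, 108 and 116 CPM to 48.2, 57.7 and 55.3 CPM, or a log2 change of -1.06 (edgeR, SE 0.0564, adjusted p = 5.23e-11). After siFLI1, the FCGRT ranges of TC-32 and TC-71 overlapped, although their controls had been far apart.

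Among the kinases, VRK1 is a nuclear serine and threonine kinase of dividing cells that phosphorylates chromatin proteins. In TC-32, VRK1 stood at 56.1, 59.97 and 53.1 CPM in siNeg and at 7.32, 5.85 and 6.23 CPM in siFLI1, or a log2 change of -3.13 (edgeR, SE 0.0819, adjusted p = 5.09e-21). In TC-71, it went from 159, 160 and 150 CPM to 39.9, 31.75 and 36.9 CPM, or a log2 change of -2.11 (edgeR, SE 0.0611, adjusted p = 5.09e-21). In A673, it went from 89.6, 93.5 and 91.4 CPM to 40.9, 38.6 and 40.2 CPM, or a log2 change of -1.20 (edgeR, SE 0.0409, adjusted p = 1.81e-13). The libraries of the siRNAs were well apart in each line, with the smallest relative fall in A673. PRKCB, protein kinase C beta, a kinase activated by calcium and diacylglycerol, behaved more evenly. With siNeg, TC-32 held 279, 277 and 270 CPM, TC-71 held 372, 375 and 384 CPM, and A673 held 261, 272 and 263 CPM. Its siFLI1 libraries lay between 97.55 and 122 CPM in all 3 lines. The log2 fold changes were -1.43 for TC-32 (SE 0.0449), -1.69 for TC-71 (SE 0.0442) and -1.23 for A673 (SE 0.0369), and the highest edgeR adjusted p was 3.37e-14.

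JAK1 is a tyrosine kinase of cytokine receptors and is expressed in most tissues. Its falls were the mildest of the group in A673 and, leaving aside FCGRT and CAV1, which rose, in TC-32 and TC-71. In TC-32, JAK1 stood at 456, 443 and 432 CPM in siNeg and at 255, 244 and 244.8 CPM in siFLI1, and 55.9% was left. In A673, the values were 637, 655 and 641 CPM against 418, 394 and 392 CPM, and 62.3% was left. In TC-71, they were 796.5, 796 and 813 CPM against 666, 676 and 692 CPM, and 84.6% was left. Even this shallow change left no overlap between the groups, and the log2 fold change was -0.24 (edgeR, SE 0.0384, adjusted p = 2.07e-06). Same-strand neighbours cover 4.91% of the JAK1 exons.

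The remaining 2 genes encode enzymes. GSTM4 is a glutathione S-transferase of the mu class, which conjugates glutathione to electrophiles. It stood at 95.8, 103 and 98.1 CPM in TC-32 siNeg and at 36.5, 35.4 and 36.3 CPM in siFLI1, or a log2 change of -1.46 (edgeR, SE 0.0532, adjusted p = 4.37e-18). In TC-71, it went from 118, 114 and 116 CPM to 61.1, 57.1 and 57.5 CPM, or a log2 change of -0.99 (edgeR, SE 0.0489, adjusted p = 3.81e-17). In A673, it went from 119, 114.5 and 114.5 CPM to 33.3, 33.3 and 35.2 CPM, or a log2 change of -1.77 (edgeR, SE 0.0415, adjusted p = 1.37e-15). GSTM4 was thus the member with the most similar control levels across lines. Its close paralogs in the same cluster can share reads with it, so its counts are uncertain. GSTM1, the best known of them, was too low to be tested in TC-32.

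LIPI encodes a membrane-associated phospholipase that is otherwise restricted largely to testis. In A673, LIPI went from 102, 106 and 106 CPM in siNeg to 5.10, 4.64 and 5.65 CPM in siFLI1, the largest change of the group. Its log2 fold change there was -4.35 (edgeR, SE 0.0610, adjusted p = 3.14e-18). In TC-32, it went from 26.5, 25.7 and 23.8 CPM to 2.61, 1.57 and 2.37 CPM, with 53 to 70 counts left per library, or a log2 change of -3.56 (edgeR, SE 0.121, adjusted p = 2.49e-18). In TC-71, LIPI was scarce from the start, at 4.31, 6.59 and 4.72 CPM in siNeg, and fell to 2.41, 1.84 and 1.94 CPM. The log2 fold change there was -1.32 (edgeR, SE 0.171, adjusted p = 6.83e-08), with 116 to 136 counts behind each control value, and this SE was the widest of the group. The siNeg levels of LIPI therefore spanned a wider range over the lines than those left after siFLI1.

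The next question was how the level left of each gene compared with the FLI1 level left. FLI1 itself was left at 48.9% of siNeg in TC-32 (95% interval 44.6 to 53.6), 36.1% in TC-71 (32.8 to 39.8) and 23.55% in A673 (22.1 to 25.05). These are ratios from the fit of each line, and their intervals cover the spread between libraries. Each share is relative to the control of its own line. In CPM, the FLI1 levels of the siFLI1 libraries overlapped between A673 (17.6 to 18.3) and TC-71 (17.2 to 19.9), which were scaled separately. In TC-32, where the most FLI1 transcript remained, 8 of the 10 genes fell further than FLI1, with intervals wholly below its own, as did 9.53% of all genes tested (15.1% by the estimate alone). JAK1 overlapped with FLI1 there, and FCGRT lay above it. In TC-71, NR0B1 (12.9% left) and VRK1 (23.1%) lay below FLI1, and 2.52% of all genes did so (4.88% by the estimate alone). PRKCB, FCGRT and LIPI overlapped with it, and the other 5 genes lay above. In A673, where the smallest share of FLI1 remained, LIPI (4.91% left) and STEAP1 (19.9%) lay below FLI1. So did 2.06% of all genes (3.15% by the estimate alone). NR0B1 (24.8%) overlapped with it, and 7 lay above. The median level left over the 10 genes was 26.0% for TC-32, 43.5% for TC-71 and 35.9% for A673.

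**Figure D3:**
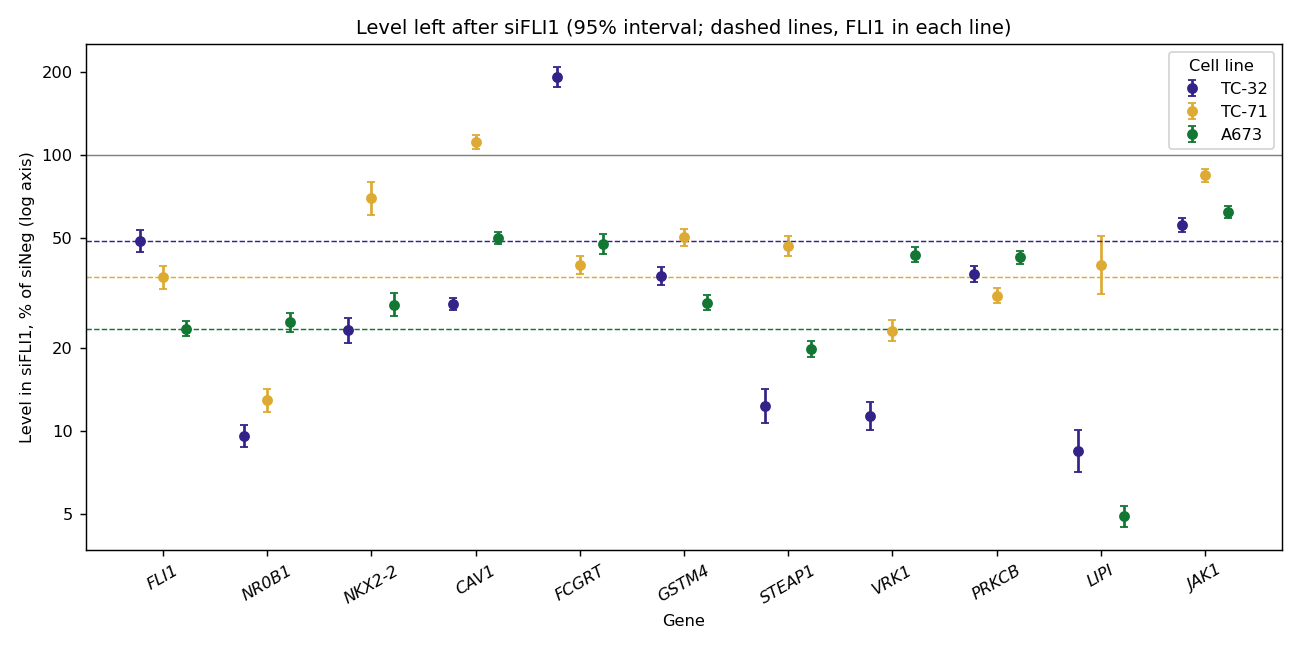
Level in siFLI1 as a percentage of siNeg for FLI1 and the 10 genes in TC-32, TC-71 and A673, on a log axis. Points are ratios from the edgeR fit of 3 against 3 libraries, bars are 95% intervals, dashed lines carry the FLI1 value of each line across, and the grey line is no change; 8 genes lie below the FLI1 line in TC-32 and 3 do in TC-71.

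Over the lines, the level left of FLI1, as a share of siNeg, was lowest in A673, then TC-71, then TC-32. None of the 10 genes followed this order, against 18.9% of the 14233 genes tested in all 3 lines and 4.89% of the 2700 genes called lower in all 3. The level left was lowest in TC-32 for 6 genes (NR0B1, NKX2-2, CAV1, STEAP1, VRK1 and JAK1), in A673 for GSTM4 and LIPI and in TC-71 for FCGRT and PRKCB. A lowest level in TC-32 was also the most frequent outcome elsewhere, with 45.4% of all genes and 73.7% of those lower in all 3 lines. For TC-71 these shares were 21.3% and 12.6%, and for A673 33.3% and 13.7%. From low to high, NR0B1 and VRK1 ran TC-32, TC-71, A673, an order held by 27.3% of all genes and 50.8% of those lower throughout. NKX2-2, CAV1, STEAP1 and JAK1 ran TC-32, A673, TC-71 (18.1% and 22.9%). GSTM4 and LIPI ran A673, TC-32, TC-71 (14.3% and 8.85%), FCGRT ran TC-71, A673, TC-32 (11.8% and 4.07%) and PRKCB ran TC-71, TC-32, A673 (9.49% and 8.52%). With 3 lines, no correlation with FLI1 was computed. FLI1 protein was not measured, and the line cannot be told apart from its table, counter, medium and stated time.

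Whether the siFLI1 effect differed between lines was tested for each of the 3 pairs of lines in one model of all 18 libraries, with p-values adjusted over 19610 genes. It differed for 10 of the 10 genes in each pair (edgeR, adjusted p under 0.05), and so did 62.1% of all genes for TC-32 against A673, 53.6% for TC-32 against TC-71 and 51.6% for A673 against TC-71. The effect was more negative in TC-32 than in TC-71 for 8 genes, with FCGRT and PRKCB the other way. It was more negative in TC-32 than in A673 for 7, with FCGRT, GSTM4 and LIPI the other way. Between A673 and TC-71, it was more negative in A673 for 6 genes and in TC-71 for NR0B1, VRK1, PRKCB and FCGRT. The smallest differences were less firm: JAK1, NKX2-2 and PRKCB between TC-32 and A673 and FCGRT between A673 and TC-71 were no longer called under some settings, including scaling by library size alone. Leaving out 1 library ended the call for PRKCB without siFLI1 library 2 of TC-32 (-0.13, edgeR adjusted p = 0.0611), and for NKX2-2 without siFLI1 library 1 or 3 of TC-32 or library 1 of either A673 group (-0.22 to -0.26, adjusted p 0.0514 to 0.0941). It did so for JAK1 without siNeg library 1 or siFLI1 library 2 or 3 of TC-32, or siNeg library 1 or 3 or siFLI1 library 1 of A673 (-0.10 to -0.12, adjusted p 0.0675 to 0.104). For FCGRT it did so without library 3 of either TC-71 group, siNeg library 1 or siFLI1 library 2 of TC-71, siNeg library 1 or 2 or siFLI1 library 2 or 3 of A673 (0.16 to 0.22, adjusted p 0.065 to 0.159).

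The distance of the nearest repeat was set beside the size of the change, as a description. Among the 5 genes with a run within 5 kb, the log2 fold changes of TC-32 ran from -3.56 (LIPI) to 0.94 (FCGRT), those of TC-71 from -2.95 (NR0B1) to 0.16 (CAV1), and those of A673 from -4.35 (LIPI) to -0.99 (CAV1). Among the 5 with none so close, they ran from -3.13 (VRK1) to -0.84 (JAK1), from -2.11 (VRK1) to -0.24 (JAK1) and from -2.33 (STEAP1) to -0.68 (JAK1) in the same order of lines. The medians of these groups were -1.79 and -2.11 for TC-32, -1.32 and -1.09 for TC-71, and -1.77 and -1.23 for A673. The ranges overlapped in each line. LIPI, the deepest fall of the near group in TC-32 and A673, belongs to that group by its GENCODE start only. From its RefSeq start, the run lay 6364 bases away, beyond 5 kb. The only rises, of FCGRT in TC-32 and CAV1 in TC-71, were both in the group with a near repeat.

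The control levels also differed between lines. Per kilobase of exon, CAV1 was highest in TC-32 (745 ± 13.7 CPM per kb, SD, n = 3) and A673 (487 ± 7.68), whereas STEAP1 was highest in TC-71 (118 ± 10.6). NR0B1 ranked 2 of 10 in TC-32 (79.7 ± 4.61 CPM per kb) and TC-71 (86.3 ± 3.35), with overlapping libraries, and 8 in A673 (11.99 ± 0.157). LIPI ranked 3 in A673 (54.4 ± 1.205) and last in TC-71 (2.71 ± 0.634). FLI1 itself was lowest in TC-32 (5.64 ± 0.307 CPM per kb), then TC-71 (6.35 ± 0.326), and highest in A673 (9.50 ± 0.0912), and the libraries of the 3 lines did not overlap. The gap was narrow between TC-32, with a highest library of 5.94, and TC-71, with a lowest of 5.97. The tables were scaled separately and that of TC-71 names a different counting program, so these differences between lines are uncertain. VRK1 has 31679 bases of annotated exon, the most of the group, so its low rank is uncertain.

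Other genes reported as raised by the fusion, a list of 20 drawn from general knowledge, were read in the same fits. TC-32 had 16 of 19 tested lower and 3 higher, TC-71 had 17 of 20 lower and 1 higher, and A673 had 19 of 20 lower and 1 higher. Over all genes tested, 40.1%, 35% and 35.4% were lower in the same order of lines, and 41.3%, 36.8% and 35.6% higher. The median log2 fold changes of the list were -2.26, -1.36 and -1.85, beside 0.022, 0.018 and -0.0066 over all genes. Lower in all 3 lines were 15 genes of the list, among them CCND1, which encodes cyclin D1. The share over all genes tested in all 3 lines was 19%. The 3 largest falls in TC-32 were those of the hormone gene CCK (-4.77), CCND1 (-4.32) and the lipase gene ABHD6 (-3.61). In TC-71 they were CCK (-3.14, SE 0.346), PPP1R1A, a phosphatase inhibitor (-2.61), and the zinc finger gene FEZF1 (-2.48). CCK had 3 to 14 counts left per library there, so its first place is uncertain. In A673 the 3 largest falls were those of CCK (-8.03, with 1 to 7 counts left per library), FEZF1 (-5.85) and CALCB, a calcitonin-related peptide (-5.38). Opposite-strand genes cover 32.5% of the CCK exons and 26.6% of the FEZF1 exons, so both are uncertain.

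The exceptions in that list were few. IL1RAP, a coreceptor of interleukin 1, rose in every line, by 0.64 for TC-32, 0.35 for TC-71 and 0.91 for A673 on the log2 scale. EGR2, an early growth response factor, rose in TC-32 (1.51), where siNeg libraries held 5.88 ± 0.0990 CPM and siFLI1 libraries 16.8 ± 2.11 CPM (SD, n = 3). It fell in TC-71 (-1.48), where the levels were 163 ± 2.16 and 58.5 ± 1.34 CPM, and fell in A673 (-1.16). JARID2 was likewise higher in TC-32 (0.63) and lower in TC-71 (-0.14) and A673 (-0.61). In TC-71, GLI1 (-0.12, edgeR adjusted p = 0.123) and CALCB (-0.061, edgeR adjusted p = 0.723) did not pass the threshold, and CALCB held at most 7 counts in TC-32 and was not tested. The control level of EGR2 in A673, where it fell, was 7.93 ± 0.521 CPM, above that of TC-32 without overlap of the libraries. These lines were scaled separately, and the part of the control level was not tested.

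**Figure D4:**
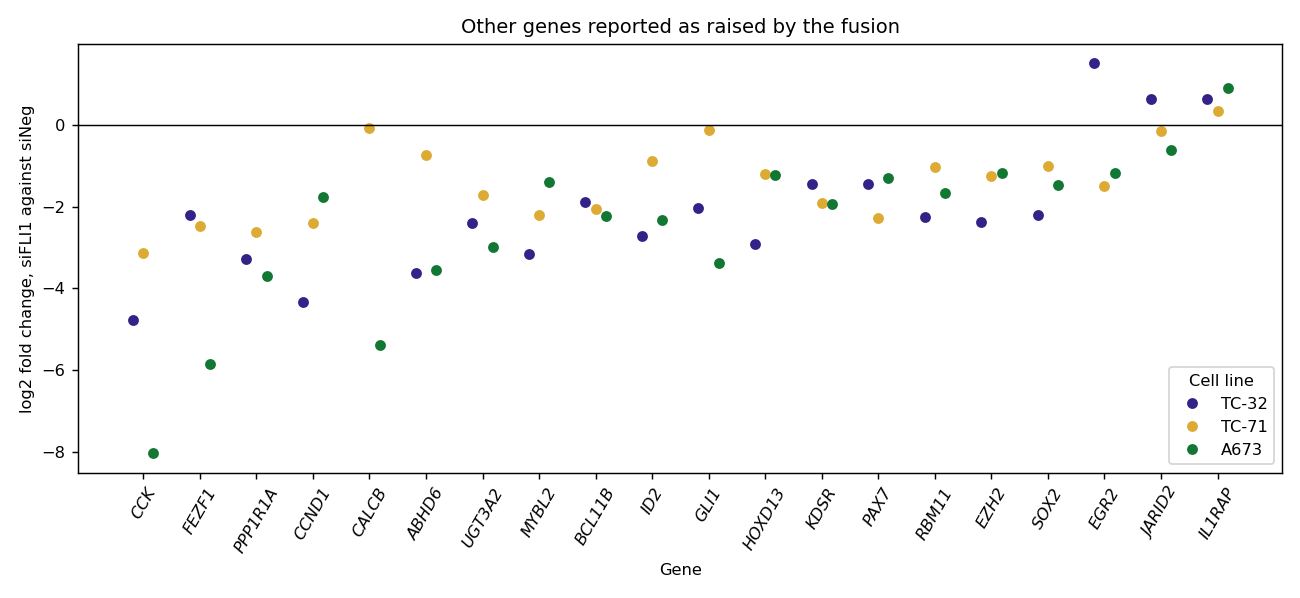
Log2 fold change of siFLI1 against siNeg for the 20 other genes reported as raised by the fusion, in TC-32, TC-71 and A673. Genes are ordered by their mean over the lines, points are estimates from 3 against 3 libraries, and the line at 0 is no change; CCK falls most and IL1RAP is above 0 in every line.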

How the data were processed

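Stranded messenger RNA libraries were made, per the labels. For TC-71 the authors deposited counts, attributed by the table name to Subread; those of TC-32 and A673 are expected counts, deposited with RSEM in the table names and rounded here. None is scaled to depth. The line of TC-32 and TC-71 columns rests on the table name. The submitters' processing notes list cutadapt 4.4, STAR 2.7.3, Subread 2.0.3 and limma 3.38.3 with GRCh38, without roles; the strand setting is not given in the sources used here.

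Each line was fitted in R 4.3.3 with edgeR 4.0.16 (filterByExpr, TMM, robust quasi-likelihood F-test), with Benjamini-Hochberg adjustment over all genes tested and a threshold of 0.05. Log2 fold changes carry a prior count of 0.125; SE and levels left come from unshrunken coefficients. Effects were compared between lines by interaction contrasts over 18 libraries. The fits were tested on data simulated from their own fitted spread, with 200 genes changed 2-fold, which cannot test bias of counting. Alternatives were other scalings and filters, DESeq2 1.42.0, limma-voom (limma 3.58.1), unrounded counts, a replicate block and leaving out each library. Gene models were GENCODE 44 and runs were searched in hg38 with Python 3.11.15. Total counts set the precision; intervals cover no bias of counting. The genes, lists and the rule naming every member, FLI1, and the extreme and discordant listed genes were chosen with earlier results of these data known.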

Additional observations from a re-analysis of the deposited data

Results flagged for a closer look

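By the interaction test, the siFLI1 effect differed between the lines for each of the 10 genes and FLI1 (edgeR, adjusted p under 0.05). So did 62.1% of all genes for TC-32 against A673, 53.6% for TC-32 against TC-71 and 51.6% for A673 against TC-71. The line cannot be told apart from its table, counter, medium and stated time. Each value is the log2 fold change of the first line minus that of the second, so a negative value is a deeper fall in the first, and the pairs are in the order TC-32 minus A673, TC-32 minus TC-71 and A673 minus TC-71. FLI1 had 1.08, 0.43 and -0.65. NR0B1, with -1.34, -0.44 and 0.91, and VRK1, with -1.91, -1.03 and 0.88, fell most in TC-32 and least in A673. NKX2-2 (-0.28, -1.59 and -1.31), CAV1 (-0.78, -1.96 and -1.18), STEAP1 (-0.66, -1.94 and -1.27) and JAK1 (-0.13, -0.60 and -0.47) fell most in TC-32 and least in TC-71, where CAV1 rose. GSTM4 (0.34, -0.48 and -0.82) and LIPI (0.81, -2.26 and -3.07) fell most in A673 and least in TC-71. PRKCB (-0.17, 0.26 and 0.43) fell most in TC-71. FCGRT (2.03, 2.25 and 0.22) rose in TC-32 and fell in the other lines. The highest adjusted p was 0.0342, for FCGRT between A673 and TC-71, and the lowest was 1.48e-26, for CAV1 between TC-32 and TC-71. The differences of JAK1, NKX2-2 and PRKCB between TC-32 and A673 lost the call under some settings, so their order in these lines is not firm. The same holds for FCGRT between A673 and TC-71.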

How the results depend on the processing

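Over 451 alternative values of the log2 fold changes of the 10 genes and FLI1 within lines, 0 changed direction or side of the threshold. Of 627 alternative values of their differences between lines, 26 lost the call and 0 turned. These were the differences of JAK1, NKX2-2 and PRKCB between TC-32 and A673, which with library size alone were -0.0087, -0.16 and -0.052, and of FCGRT between A673 and TC-71, 0.16. Library size alone moved the median of all A673 genes from -0.0066 to -0.11. All 4 also lost the call without certain single libraries, with an adjusted p of at most 0.104 for JAK1, 0.0941 for NKX2-2, 0.0611 for PRKCB and 0.159 for FCGRT. The replicate numbers did not pair the libraries (the same-number correlations lay between -0.0784 and 0.0422). With the replicate block, TC-32 had 13053 called genes, TC-71 12048 and A673 12467, while NKX2-2 between TC-32 and A673 lost the call (-0.29, edgeR adjusted p = 0.0503). The share of all genes with a GGAA run was 29.7% for at least 6 copies, 6.67% within 10 kb, where 5 of the 10 genes had one, and 97.5% within 500 kb. RefSeq gene starts, chosen after seeing the data, gave 8 of the 9 genes found and 53.6% of all genes.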

Other observations

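Neighbours of the 10 genes were read from the same fits. RBM11, an RNA-binding protein gene that shares the repeat upstream of LIPI, was lower in TC-32 (-2.26), TC-71 (-1.02) and A673 (-1.67). The values of LIPI were -3.56, -1.32 and -4.35 in the same order, and the differences between these genes were not tested. STEAP2, a metalloreductase gene next to STEAP1 whose intron holds the run of 17 copies, was lower in TC-32 (-1.32), TC-71 (-0.90) and A673 (-2.80). CAV2, the partner of CAV1 in caveolae, was lower in TC-32 (-1.50) and A673 (-0.55) and did not pass the threshold in TC-71 (-0.055, edgeR adjusted p = 0.341), the line where CAV1 was not lowered. GSTM2, beside GSTM4, was higher in TC-32 (1.51) and TC-71 (0.25) and lower in A673 (-0.52). GSTM3 was higher in TC-32 (0.73) and lower in TC-71 (-0.63) and A673 (-0.15). GSTM1, not tested in TC-32, fell in A673 (-0.999) and in TC-71 (-0.63), and GSTM5 was lower in TC-71 (-1.34), where alone it was tested. As close paralogs, all are uncertain.

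Relatives elsewhere in the genome, and NKX2-4 on the chromosome of NKX2-2, went in both directions. PRKCA, protein kinase C alpha, was higher throughout (2.45 in TC-32, 1.03 in TC-71, 2.60 in A673), where PRKCB was lower, and so were PRKCE (0.39, 0.94 and 1.68) and JAK3 (1.14, 2.94 and 2.19). PRKCD was lower in TC-32 (-0.46) and TC-71 (-0.42) and higher in A673 (0.75). JAK2 was lower in TC-32 (-0.72), higher in TC-71 (0.74) and at 0.0036 in A673 (edgeR adjusted p = 0.957). NKX2-4 lies on the same strand as NKX2-2, at chr20:21395365-21397526 against chr20:21511017-21514064. It was lower in TC-32 (-1.50) and TC-71 (-0.60), with -0.085 in A673 (edgeR adjusted p = 0.814). Of the 25 paralogs and neighbours listed, 7 of 16 tested were lower and 7 higher in TC-32, 9 of 20 lower and 8 higher in TC-71, and 9 of 20 lower and 7 higher in A673. Over all genes, 40.1% were lower and 41.3% higher in TC-32, 35% and 36.8% in TC-71, and 35.4% and 35.6% in A673. The median log2 fold changes were 0.070, -0.010 and -0.091.

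The genes with the 3 log2 fold changes most like those of NR0B1, by Euclidean distance among 10473 protein-coding genes, were DLGAP1 (distance 0.864), E2F2 (0.880) and MND1 (0.952). Their log2 fold changes in TC-32, TC-71 and A673 were -3.37, -3.07 and -2.87 for DLGAP1, -4.18, -2.59 and -2.10 for E2F2 and -3.48, -2.20 and -1.44 for MND1.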
